A study of Mus musculus with 6 samples.

Results

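The immediate early genes are the genes that a cell transcribes within minutes of a stimulus, without first making new protein. The set described here holds 10 of them, chosen by name from the 23946 gene symbols of the expression table: Fos, Fosb, Jun, Junb, Atf3, Egr1, Egr2, Ier2, Dusp1 and Zfp36. All 10 were present in the table and all passed the level used here for an expressed gene, a level of 1 FPKM or more in some library. FPKM counts sequenced fragments per kilobase of transcript and per 1000000 aligned fragments, so levels of different genes can be compared per length.

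Macrophages were sorted as CD45+CD11b+F4/80+ cells from dissociated omentum (OM) and mesenteric adipose tissue (MY) of C57BL/6 mice. The mice were naive, or had received ID8 cells, a mouse ovarian carcinoma line, 24 h or 7 d before. The methods describe the mice as females of 6 to 8 weeks. They describe omenta pooled by 3 and sequencing on 3 such pools, whereas the table holds 1 column for each of the 6 conditions, and whether a column stands for 1 pool or for several is not given in the sources used here. A comparison of 2 columns below is therefore a description without a p-value, and the tissues alone were also tested over the 3 time points. The controls were naive mice, and a group injected without cancer cells was not analysed here. Both tissues were dissociated with an adipose tissue kit before the sort, at every time point.

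FPKM values summed to between 526887 and 713863 per library, and the commonest ratio of low values put the depth of the libraries between 0.859 and 1.49 times that of MY naive. The genes of the sort were present in all libraries: Ptprc (CD45) at 105.8 to 208.3 FPKM, Itgam (CD11b) at 27.8 to 150.9 and Emr1 (F4/80) at 20.5 to 135.0. In bulk RNA from sorted cells, a higher level may come from more cells that make the RNA or from more RNA per cell, and these cannot be told apart. The time from tissue removal to lysis is not given in the sources used here, and its part in the levels of these genes was not tested.

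As background, growth factors, cytokines, adhesion and cell damage reach these genes through MAP kinases, which activate the serum response factor SRF with its ternary complex factors, CREB and other factors already present on the promoters. Fos and Jun proteins pair through leucine zippers to form AP-1, a transcription factor, and Atf3 belongs to the same zipper superfamily. The products include brakes on the response: Dusp1 is a phosphatase that switches off MAP kinases, and Zfp36 (tristetraprolin) binds AU-rich elements in short-lived messenger RNAs and speeds their decay. The same genes are known to be switched on in many cell types when tissue is digested into single cells. In macrophages they also respond to microbial products and cytokines.

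The promoters are shown because the members moved together between the tissues. Of the 10 members, 8 had an entry in the RefSeq promoter table (build GRCm38.p6), with Egr1 and Ier2 not in it. The bases up to 250 upstream of the start were matched exactly to NCBIM37 (mm9), the build of the authors' alignment, with 1 exact match each, and were cut where the GENCODE M1 annotation of the gene begins. They are printed 5′ to 3′ in the direction of the gene for 4 members that hold a TATA box, a CRE-like motif or a CArG box, with that motif in capitals. Fos is on the plus strand, and Jun, Dusp1 and Zfp36 are on the minus strand.
Fos, chr12:86814590-86814839: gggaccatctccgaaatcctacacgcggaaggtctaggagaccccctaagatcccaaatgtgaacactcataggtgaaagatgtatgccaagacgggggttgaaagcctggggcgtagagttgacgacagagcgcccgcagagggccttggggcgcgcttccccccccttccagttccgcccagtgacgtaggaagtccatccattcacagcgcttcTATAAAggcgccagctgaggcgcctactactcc
Jun, chr4:94718914-94719163: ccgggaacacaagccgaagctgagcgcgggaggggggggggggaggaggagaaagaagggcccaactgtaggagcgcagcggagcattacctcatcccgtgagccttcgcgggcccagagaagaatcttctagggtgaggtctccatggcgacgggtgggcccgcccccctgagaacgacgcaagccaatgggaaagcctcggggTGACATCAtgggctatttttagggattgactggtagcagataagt
Dusp1, chr17:26645465-26645667: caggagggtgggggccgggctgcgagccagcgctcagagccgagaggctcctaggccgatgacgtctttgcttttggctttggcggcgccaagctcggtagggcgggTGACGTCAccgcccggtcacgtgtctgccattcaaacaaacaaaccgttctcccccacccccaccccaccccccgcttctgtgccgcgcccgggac
Zfp36, chr7:29164275-29164497: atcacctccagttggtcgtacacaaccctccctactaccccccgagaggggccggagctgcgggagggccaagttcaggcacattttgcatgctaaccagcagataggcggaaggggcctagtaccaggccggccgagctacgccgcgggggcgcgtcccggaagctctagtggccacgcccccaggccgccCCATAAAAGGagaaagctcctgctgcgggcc

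The motifs were searched on both strands in the 250 bases before the start of 9774 expressed genes. The TATA box (TATAAA) was found in Fos and in 6.68% of all promoters searched. The CRE-like motif (TGACNTCA), a site of the CREB and ATF families, was found in Dusp1 and Jun and in 5.92% of all. The CArG box, the site of SRF, was found in Zfp36 and in 1.15% of all. The EGR motif (GCGNGGGCG) was found in Fosb and Zfp36 (8.53% of all), the NF-kB motif in Egr2, Fos and Fosb (8.72%) and the ETS core (CGGAAGT) in Junb (9.88%). The GC box (GGGCGG), which can overlap the EGR motif, was found in 7 of the 8 members (58.4%), and the AP-1 site TGAGTCA in 0 of 8 (3.21%). A match describes the letters of this window only.

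Some of the messenger RNAs hold an element that the choice of members did not use. The AU-rich heptamer TATTTAT, the core of the element bound by Zfp36, was searched in the last 300 bases of the 3′ untranslated region of the longest annotated coding transcript. It was found in 5 of the 10 members, namely Fos, Jun, Atf3, Dusp1 and Zfp36 itself, and in 985 of 9633 expressed genes (10.2%) with a region of that length. The element with its flanks is shown for 4 of them, with the heptamer in capitals.
Fos: tttcaattTATTTATtaagatgg
Jun: cttgtgcaTATTTATaatagcgt
Atf3: atattactTATTTATcccagtat
Zfp36: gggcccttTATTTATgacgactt

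At each of the 3 time points all 10 members were at least 2-fold higher in omental than in mesenteric macrophages, and every omental library was above every mesenteric library for all 10. Across the 13064 expressed genes, the share at least 2-fold higher in the omentum was 8.18% for the naive libraries, 13.9% at 24 h and 14.1% at 7 d, and the share at least 2-fold lower was 8.05%, 10.2% and 4.99%, with 0 members among them. The share at least 2-fold higher at every time point was 3.93%, and the share with every omental library above every mesenteric one was 16.7%. Differences were taken as log2(FPKM + 1), which understates the change of low genes. The median difference of the members was 3.24 in the naive libraries, 3.35 at 24 h and 3.70 at 7 d, against medians of 0.01, 0.00 and -0.01 over all expressed genes. The comparisons of the 3 time points use separate libraries.

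The tissues were tested over the 3 time points with limma on log2(FPKM + 1) of all expressed genes, with time as a block. This leaves 2 residual degrees of freedom, from how far the tissue difference of a gene varied with time. The spread of each gene was then drawn toward a trend over all expressed genes. The SE and p-values of a member thus also rest on the other genes. All 10 members passed at a Benjamini-Hochberg adjusted p under 0.05, with adjusted p-values from 0.00214 to 0.00892 over the members, where 5.26% of expressed genes passed upward and 4.81% downward. The mean difference was 6.98 for Fos (SE 0.24), 3.46 for Jun (SE 0.14) and 2.12 for Egr2 (SE 0.22), with Fos the highest and Egr2 the lowest of the members. Without the 7 d libraries 9 of the 10 passed, and Egr2 had a limma adjusted p of 0.0640. The naive libraries and those taken after ID8 are not replicates of each other. The members were chosen with the tissue difference known, so their passing was partly fixed in advance and is no independent support. Fosb reached 1 FPKM only in omental libraries, and so entered the test only through them.

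**Figure D1:**
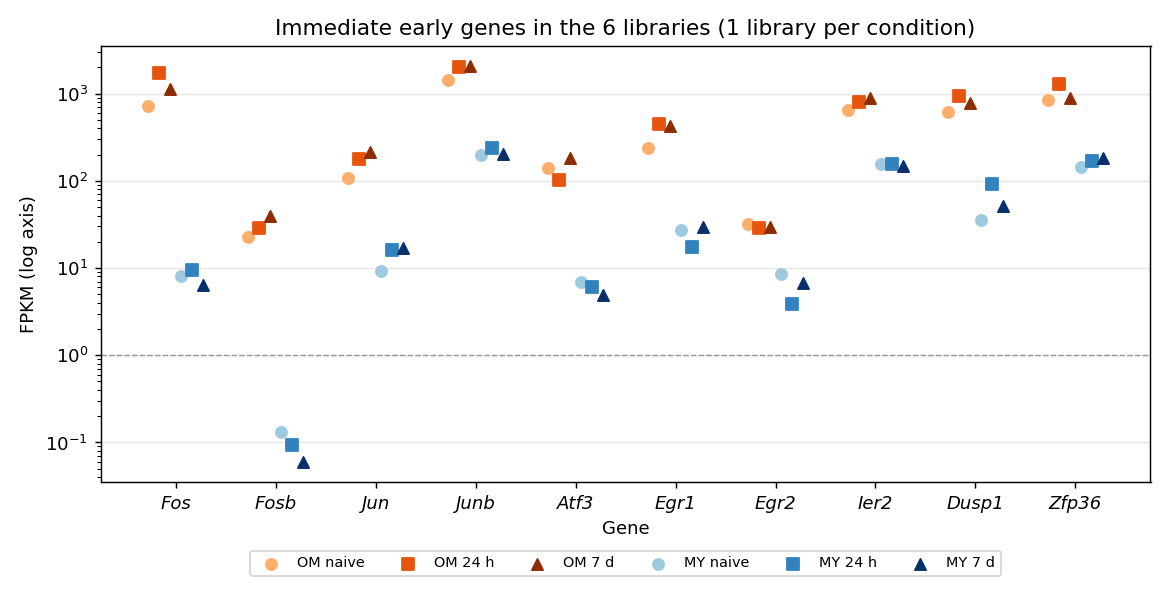
FPKM of the 10 immediate early genes (log axis) in the 6 libraries, with orange symbols for the omentum (OM) and blue symbols for the mesentery (MY), 1 library per symbol. For every gene the 3 orange symbols lie above the 3 blue ones, and the gap is widest for Fosb and Fos.

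**Figure D2:**
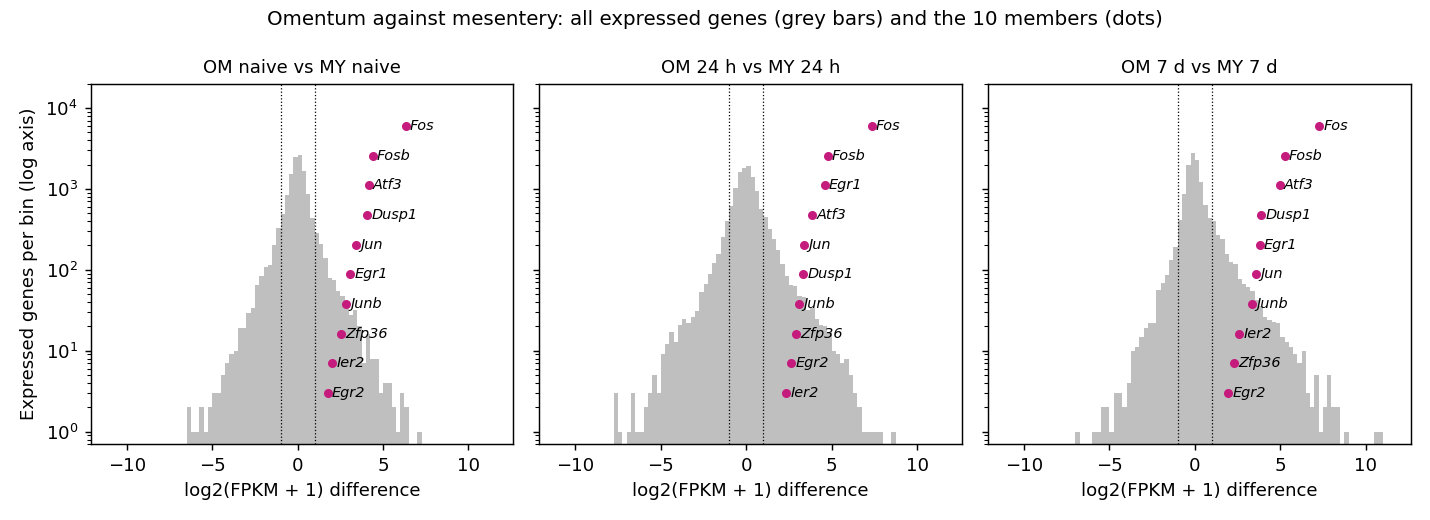
Differences in log2(FPKM + 1) between omentum and mesentery for all 13064 expressed genes (grey bars, number per bin on a log axis) and for the 10 members (dots, whose height only spreads the names). Dotted lines mark 2-fold, and all members lie to the right of the upper line at naive, 24 h and 7 d.

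Fos encodes the AP-1 subunit that gives the family its name and pairs with Jun proteins rather than with itself. In the omentum its FPKM was 729.8 in the naive library, 1715 at 24 h and 1129 at 7 d. In the mesentery it was 8.17, 9.52 and 6.37 at the same times. The lowest omental value was thus 76.7 times the highest mesenteric one, and the groups did not overlap. The ratio of omentum to mesentery was 89.3 in naive mice, 180.2 at 24 h and 177.3 at 7 d, on the FPKM scale. By difference in log2(FPKM + 1), Fos ranked 2 of 13064 genes toward the omentum in naive mice, 4 at 24 h and 15 at 7 d. Its place among all genes by level showed the same contrast: it was number 95, 37 and 40 in the omental libraries and number 7023, 6615 and 7643 in the mesenteric ones. Fos lies on the plus strand of chromosome 12 of NCBIM37, from 86814840 to 86818223, with 4 exons.

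Fosb, the closest relative of Fos, was far lower in level but even further apart between tissues as a ratio. The omental FPKM was 22.7, 28.6 and 39.6 in naive mice, at 24 h and at 7 d. The mesenteric FPKM was 0.131, 0.0924 and 0.0590, below the level of an expressed gene in all 3 libraries. Because these values rest on few fragments, the ratios (173.3, 308.9 and 670.9) are uncertain, and the log2(FPKM + 1) differences were 4.39, 4.76 and 5.26. Fosb lies on the minus strand of chromosome 7 from 19888070 to 19895394.

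Jun and Junb encode the partners of Fos, and Junb was the highest of all members in every library. Junb had an FPKM of 1439, 2041 and 2085 in the omentum and of 197.7, 235.2 and 205.3 in the mesentery. It was thus abundant in both tissues and 7.28, 8.68 and 10.2 times higher in the omentum in naive mice, at 24 h and at 7 d. Jun was at 108.9, 178.0 and 214.6 in the omentum and at 9.35, 16.2 and 16.8 in the mesentery. Its ratio between the tissues, 11.6, 10.98 and 12.8, stayed near the same value at all times, while its level was lowest in the naive library of each tissue. Junb lies on chromosome 8 from 87500811 to 87502617 and Jun on chromosome 4 from 94715725 to 94718913, each with 1 exon on the minus strand. Jun overlaps the non-coding transcript BC042782 on the other strand, and without strand in the counting the reads of both cannot be told apart.

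Atf3, a stress-induced zipper protein that mostly represses, was at 140.2, 101.1 and 183.0 FPKM in the omentum and at 6.96, 6.04 and 4.84 in the mesentery. The tissues did not overlap, and the ratio was 20.1 in naive mice, 16.7 at 24 h and 37.8 at 7 d. Unlike Fos, Atf3 was lowest at 24 h among the omental libraries. It lies on the minus strand of chromosome 1 from 192994175 to 193007219.

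The make-up of the RNA of AP-1 genes does not depend on scaling between libraries, since it is a share within each one. It does depend on the genes chosen. Batf (47.2 FPKM in OM naive, 54.4 in MY naive) and Batf3 (67.2 and 74.1) are among those left out. Of the summed FPKM of 8 genes (Fos, Fosb, Fosl1, Fosl2, Jun, Junb, Jund and Atf3), Fos held 24.3%, 38.6% and 27.3% in the omental libraries (naive, 24 h, 7 d) and 1.91%, 2.14% and 1.36% in the mesenteric ones. Jund, which is expressed more constantly than its relatives in most cells, held 18.2%, 8.22% and 11.2% in the omentum and 47.5%, 39.6% and 50.03% in the mesentery. Fos was above Jund in every omental library and below it in every mesenteric one. Junb kept a similar share, 45.9% to 50.4% in the omentum and 43.8% to 52.8% in the mesentery. The ratio of Fos to Jund was 1.34, 4.70 and 2.43 in the omentum and 0.0402, 0.0540 and 0.0272 in the mesentery. Within the Fos genes alone, Fosl2 held 0.79% to 1.40% in the omentum and 12.0% to 19.7% in the mesentery.

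**Figure D3:**
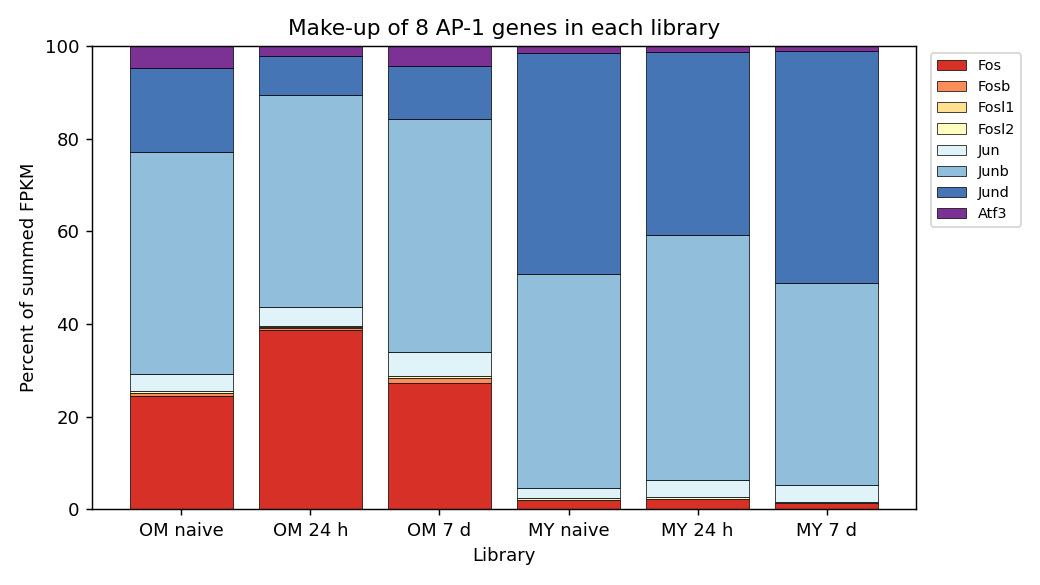
Share of each of 8 AP-1 genes in their summed FPKM (percent), 1 stacked bar per library. Fos holds 24.3% to 38.6% in the 3 omental bars and at most 2.14% in the 3 mesenteric bars, where Jund holds 39.6% to 50.03%.

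Egr1 and Egr2 encode zinc finger transcription factors, and Egr2 has known roles in macrophage differentiation and in myelination. Egr1 was at 239.0, 444.7 and 425.8 FPKM in the omentum and at 27.6, 17.4 and 29.8 in the mesentery, a ratio of 8.66, 25.6 and 14.3. Egr2 was at 31.6, 29.0 and 29.4 in the omentum and at 8.62, 3.85 and 6.77 in the mesentery. Egr2 had the lowest ratio of the members in naive mice (3.66) and the narrowest range in the omentum, where its highest library was 1.09 times its lowest. The ratio of Egr1 to Egr2 was 7.57, 15.3 and 14.5 in the omentum and 3.20, 4.51 and 4.40 in the mesentery. Egr1 occupies 35020861 to 35024638 of chromosome 18 (plus strand) and overlaps the annotated gene Gm17507 on the other strand. Egr2 occupies 66998223 to 67004936 of chromosome 10 (plus strand).

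Ier2, a short-lived nuclear protein, was at 647.7, 796.6 and 896.4 FPKM in the omentum and at 157.6, 155.5 and 146.3 in the mesentery. The mesenteric values were the steadiest of any member, with a highest to lowest ratio of 1.08, and the tissues were 4.11, 5.12 and 6.13 times apart. Ier2 has 1 exon, on the minus strand of chromosome 8 from 87185230 to 87186751.

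Dusp1 and Zfp36, the brakes on the response, were higher in the omentum like the transcription factors. Dusp1 was at 611.4, 937.0 and 780.1 FPKM in the omentum and at 35.6, 92.3 and 51.6 in the mesentery. Its tissues were 17.2, 10.2 and 15.1 times apart. Zfp36 was at 835.2, 1281 and 900.9 in the omentum and at 143.8, 168.2 and 182.8 in the mesentery, 5.81, 7.62 and 4.93 times apart. Their relatives differed less: the FPKM of Dusp6, an ERK phosphatase, was 33.3, 116.4 and 50.5 in the omentum and 47.7, 54.6 and 41.2 in the mesentery, and that of Zfp36l2 was 159.9, 110.0 and 109.0 against 95.7, 85.5 and 81.6. The ratio of Zfp36 to Zfp36l2 was 5.22 to 11.6 in the omentum and 1.503 to 2.24 in the mesentery. Dusp6 was chosen after its values were seen. Dusp1 lies on chromosome 17 from 26642535 to 26645464 and Zfp36 on chromosome 7 from 29161803 to 29164274, both on the minus strand. For all 10 members, 0 windows of 75 bases of the longest coding transcript matched coding transcripts of other genes exactly.

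After the injection of ID8 cells the members differed from the naive library by at most 1.23 in the omentum and 1.35 in the mesentery on the log2(FPKM + 1) scale, against 1.76 to 7.35 between the tissues. In the omentum at 24 h against naive, 8 members were higher and 2 (Atf3 and Egr2) lower, with a median of 0.56 on the log2(FPKM + 1) scale against 0.00 over all expressed genes. Only Fos passed 2-fold there, with a difference of 1.23, where 11.9% of expressed genes did so, and 0 members were 2-fold lower (6.45%). At 7 d 9 members were higher than in the naive omentum, with a median of 0.50 against -0.004 over all expressed genes. The smallest rise was 0.11 (Zfp36), which 40.3% of expressed genes reached or passed. There 0 members passed 2-fold in either direction (11% of expressed genes did upward and 1.96% downward). Jun came nearest, with a difference of 0.97 that became 1.03 when libraries were rescaled by the median ratio and 1.12 when rescaled to a sum of 1000000. Egr2 was the exception, at -0.10, and turned to 0.04 with the latter rescaling. Between 7 d and 24 h in the omentum, 6 members were higher and 4 lower, with differences from -0.60 (Fos) to 0.85 (Atf3), and 0 passed 2-fold higher or lower (7.03% and 4.52% of expressed genes did). With the same rescaling Egr1 and Dusp1 turned from lower to higher in that comparison. The highest omental value fell at 24 h for Fos, Egr1, Dusp1 and Zfp36, at 7 d for Fosb, Jun, Junb, Atf3 and Ier2, and in naive mice for Egr2. The omental comparisons share libraries, so they are not independent of each other.

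In the mesentery the members split evenly by sign. At 24 h against naive, 5 were higher and 5 lower, with a median of 0.09 against 0.002 over all expressed genes. The lower ones include Ier2, at -0.02, and Fosb, which was below 1 FPKM in both libraries. Dusp1 passed 2-fold, with a difference of 1.35 (2.8% of expressed genes did), and Egr2 was lowest, at -0.99 (1.52% of expressed genes were at least 2-fold lower). At 7 d against naive, 5 were again higher and 5, with Fosb among them, lower. The median was -0.02 against 0.02 over all expressed genes. There 0 members were past 2-fold (0.498% of expressed genes were past it upward and 2.29% downward). Jun had the highest difference at 7 d, 0.78. Between 7 d and 24 h the differences ran from -0.82 (Dusp1) to 0.75 (Egr1), and 0 passed 2-fold (1.84% of expressed genes upward, 3.54% downward), with Ier2 turning from -0.09 to 0.01 when rescaled to a sum of 1000000. Summed over the members, the FPKM was 4805, 7551 and 6685 in the omentum and 595.5, 704.1 and 650.7 in the mesentery, which is 0.774% to 1.19% and 0.113% to 0.123% of all FPKM of a library.

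**Figure D4:**
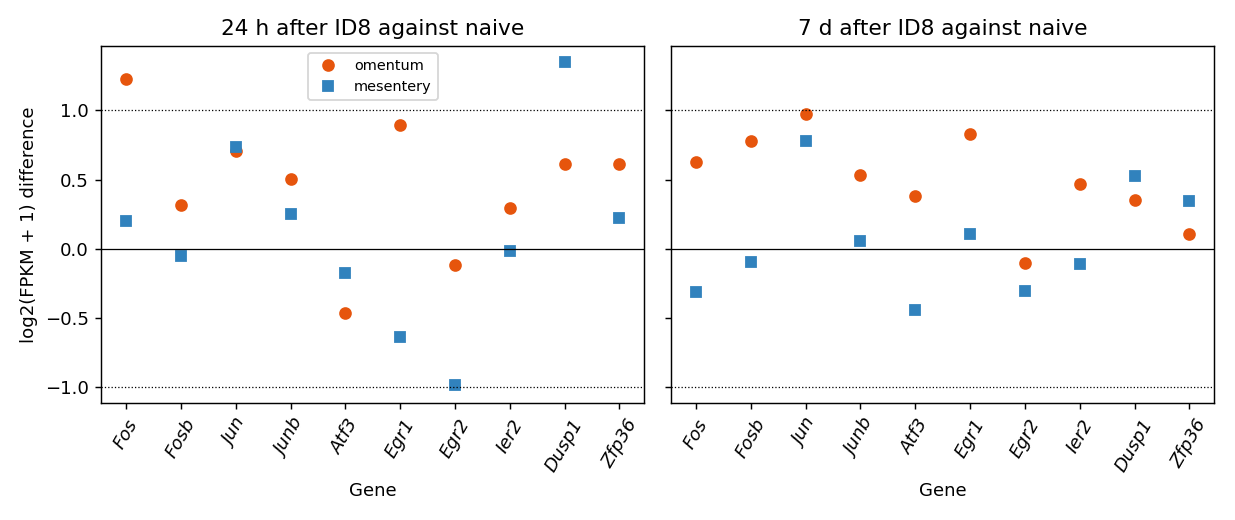
Difference in log2(FPKM + 1) of each member between 24 h or 7 d after ID8 and the naive library of the same tissue, with orange dots for the omentum, blue squares for the mesentery and dotted lines at 2-fold. Fos in the omentum (1.23) and Dusp1 in the mesentery (1.35), both at 24 h, lie beyond the lines.

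Other genes of the same response and its pathway were described from lists chosen by function. Their counts are read against all expressed genes, of which 8.18% were at least 2-fold higher and 8.05% lower in the naive omentum. Of 36 other immediate early genes, all expressed, 20 were at least 2-fold higher and 3 lower in the omentum than in the mesentery in naive mice, with a median of 1.17. At 24 h the counts were 17 and 4 (13.9% and 10.2% of expressed genes), and at 7 d 22 and 1 (14.1% and 4.99%). Ier3, a regulator of survival, was at 82.3 FPKM in OM naive and 3.96 in MY naive, and Cyr61, a matricellular protein, at 11.6 and 0.101. Against this direction, Arc, best known from synapses, was at 1.76 against 23.6, and Gadd45b, a stress sensor, at 88.8 against 237.5. Nr4a1, an orphan nuclear receptor induced in the same wave and named here after its values were seen, was at 186.0, 187.0 and 231.5 in the omentum and at 31.2, 23.8 and 23.7 in the mesentery. The direction of the members was thus common but not general in this list, since 13 of the 36 were within 2-fold in naive mice.

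For the MAP kinase and SRF lists, upstream of the response, the counts were not above the share over all expressed genes. Of 24 expressed MAP kinase pathway genes, 1 was at least 2-fold higher in the naive omentum and 0 lower, with a median of 0.26, and of 13 genes of SRF, its cofactors and CREB, 0 passed 2-fold either way, with a median of 0.17. Srf itself was at 19.4 FPKM in OM naive and 14.1 in MY naive, and Map3k1, a kinase above JNK, at 31.1 and 17.6. Among 16 other AP-1 and Maf genes, 2 were higher and 0 lower, with a median of 0.01, and Jund led the list by the naming rule at 546.5 against 203.0. Of 15 Dusp, Spry and Spred genes, 2 were higher and 0 lower (Dusp3 at 11.7 against 3.47, Dusp10 at 26.1 against 11.8). Of 8 expressed RNA decay genes around the Zfp36 family 0 passed 2-fold in the naive libraries. Levels of RNA say nothing here of phosphorylation, through which kinases and SRF cofactors act.

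Genes that AP-1 and NF-kB are known to drive in macrophages were followed in a list of 15 early cytokines and mediators. In naive mice 8 were at least 2-fold higher and 2 lower in the omentum, with a median of 1.40. At 24 h 15 of 15 were higher (13.9% of expressed genes), with a median of 2.99, and at 7 d 14 were (14.1%). Cxcl2, a neutrophil attractant, was at 52.0, 261.5 and 71.7 FPKM in the omentum and at 0.402, 1.45 and 0.271 in the mesentery. Ccl7, a monocyte attractant, was at 23.7, 124.8 and 26.4 against 0.931, 0.243 and 0.239. Cxcl10, an interferon-induced chemokine, was lower in the naive omentum (12.1 against 35.1) and higher at 24 h (124.2 against 21.2). Within the omentum 12 of the 15 were at least 2-fold higher at 24 h than in naive mice, against 11.9% of expressed genes, and 3 were at 7 d (11%). Of 15 NF-kB genes, 3 were higher and 1 lower in the naive omentum, with Nfkbiz at 36.7 against 10.6 and Relb at 64.3 against 250.6.

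**Figure D5:**
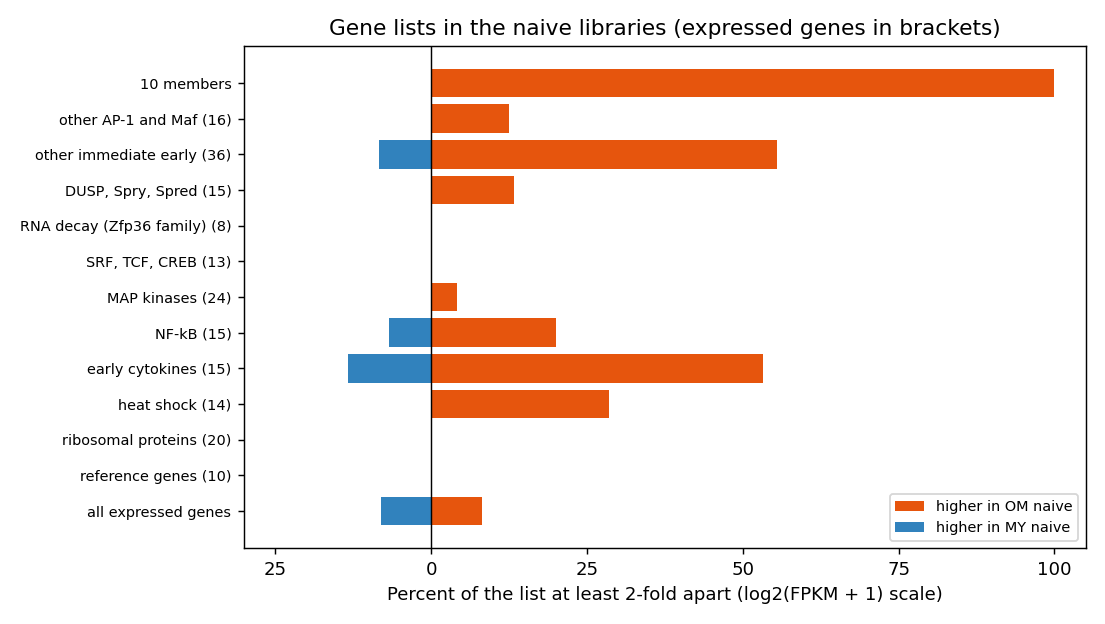
Percent of the expressed genes of each list that were at least 2-fold higher in OM naive (orange, right) or in MY naive (blue, left), with the number of expressed genes in brackets. The 10 members stand at 100% to the right, all expressed genes at 8.18% and 8.05%, and the SRF, RNA decay, ribosomal protein and reference lists at 0 on both sides.

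Heat shock genes are the other group known to respond to tissue digestion. Of 14, 4 were at least 2-fold higher and 0 lower in OM naive than in MY naive, 5 were higher at 24 h and 3 at 7 d, where 8.18%, 13.9% and 14.1% of expressed genes were higher. Hspa1a, an inducible chaperone, was at 31.2, 7.03 and 8.22 FPKM in the omentum and at 0.473, 0.494 and 0.459 in the mesentery, and Hspa1b at 30.1, 3.91 and 9.17 against 0.719, 0.511 and 0.680. Both were higher in the omentum at all times and lower there after ID8 than in naive mice. Hspb1, a small heat shock protein named here after its values were seen, went the other way in the omentum, at 19.9, 68.4 and 195.8 against 0.793, 0.622 and 0.357 in the mesentery. Bag3, a co-chaperone named likewise, was at 8.45, 16.03 and 13.2 against 8.98, 13.6 and 8.75. Hsf1, the factor that induces them, was at 30.5 against 34.1. A digestion response and a response in the animal cannot be told apart, since tissue of both kinds and all times was digested. Ribosomal protein genes (20) and reference genes (10) had 0 members past 2-fold in the naive libraries, with medians of 0.64 and 0.13.

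Markers of other cell types also moved with the tissue. The summed FPKM of 7 fibroblast genes was 222.1 to 1194 in the omentum and 2.34 to 3.55 in the mesentery, and 7 of 7 were higher in every omental library. For 8 mesothelial genes it was 99.3 to 1016 against 0.920 to 1.33 (8 of 8), with Upk1b, Wt1 and Lrrn4 listed at 0 in at least 1 mesenteric library. For 10 neutrophil genes it was 7655 to 20126 against 228.7 to 888.0 (8 of 10), with Mpo and Elane at 0 in mesenteric libraries. Of 6 monocyte genes 5, and of 11 macrophage genes 3, were higher in every omental library. All 7 T cell genes and all 8 NK cell genes were lower in every omental library. Of all expressed genes, 16.7% were higher and 17.7% lower in every omental library. The 6 B cell genes overlapped between the tissues over the 3 time points. In naive mice 5 of them were at least 2-fold higher in the omentum and 0 lower (8.18% and 8.05% of expressed genes). Their summed FPKM was 3973 in OM naive and 804.2 in MY naive. At 24 h and at 7 d 1 was higher and 1 lower (13.9% and 10.2%, 14.1% and 4.99%). The endothelial, dendritic cell, mast cell, eosinophil and adipocyte lists had 3, 7, 6, 3 and 3 expressed genes. They held 2 genes in all that were higher and 4 that were lower in every omental library. The part of these markers in the levels of the immediate early genes was not tested. Within the omentum the sum of the 10 members was 1.57 times its naive value at 24 h and 1.39 times at 7 d. The monocyte sum was at 1.15 and 1.25 times, the neutrophil sum at 2.32 and 2.63 times and the macrophage sum at 4.11 and 0.873 times. The fibroblast sum was at 0.642 and 3.45 times and the mesothelial sum at 10.2 times at both. Krt8 and Krt18 of the mesothelial list encode keratins that the paper also stained to detect the injected ID8 cells. They were at 19.9 and 9.60 FPKM in OM naive, 129.8 and 145.1 in OM 24 h and 111.0 and 116.5 in OM 7 d. Mesothelial and ID8 RNA cannot be told apart by these genes. The monocyte sum hides opposite changes. At 24 h 3 of the 6 genes were at least 2-fold higher than in naive mice, and Plac8 was lower (385.8 against 1060 FPKM). At 7 d 2 were higher and 0 lower. The neutrophil sum hides such changes too. At 24 h 8 of the 10 genes were at least 2-fold higher, while Mpo (8.49 against 83.96 FPKM) and Elane (39.4 against 118.5) were lower. At 7 d 5 of the 10 neutrophil genes were higher and 0 lower. Of expressed genes, 11.9% were higher and 6.45% lower at 24 h, and 11% and 1.96% at 7 d. The B cell sum was at 0.228 and 0.617 times, the T cell sum at 0.202 and 0.940 times and the NK cell sum at 0.0444 and 0.559 times.

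The genes with the pattern most like the mean of the 10 members over the 6 libraries were found among 7988 genes that reached 10 FPKM in some library, by the root mean square difference of the centred log2(FPKM + 1) values. The nearest were Plk2, a kinase also induced early (0.20), Ptgs2, the inducible cyclooxygenase (0.21), Pmp22 (0.29), Cd248 (0.29) and Tinagl1 (0.31), with Myl9, Acta2, Cxcl1 and Spon2 (0.33 to 0.35) among the next. Plk2 was at 20.5, 41.5 and 32.7 FPKM in the omentum and at 1.41, 2.07 and 1.27 in the mesentery. The list thus holds early response genes beside genes such as Cd248, Myl9 and Acta2, which are best known from stromal and smooth muscle cells. Except for Plk2 and Pmp22, the genes named so far were below 1 FPKM in every mesenteric library, with Ptgs2 at 0.108 to 0.233. They reached 10 FPKM only in omental libraries, and their closeness depends on the 1 added to each FPKM value. Of the members, Egr1 and Jun lay closest to the common profile (0.29 and 0.30), and Fos, with the widest tissue difference, farthest (1.65). For Fos alone the nearest genes were Cxcl2 (0.67), Serpinh1 (0.73), Col3a1 (0.78), Igfbp6 (0.82) and Krt8 (0.83). Of these, only Cxcl2 reached 1 FPKM in a mesenteric library.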

How the data were processed

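RNA of sorted omental (OM) and mesenteric (MY) macrophages was measured in 6 libraries, 1 per condition. The authors checked reads with FastQC 0.11.4, aligned them with STAR 2.4.2a to the mm9 genome, using splice junctions from UCSC, and deposited FPKM per gene symbol, made with Cufflinks, in 1 table. Raw counts and DESeq2 results of the authors were not used here, and FPKM carry no read numbers, so no count test was run. With 1 column per condition, single conditions were compared without a test, and omentum against mesentery was tested over the 3 time points with limma 3.58.1 in R 4.3.3 (time as a block, trended prior), a test added after the data were seen.

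From the deposited FPKM, differences were computed as log2(FPKM + 1) with Python 3.11.15, numpy 2.4.6 and pandas 2.3.3, and plotted with matplotlib 3.10.9. Genes reaching 1 FPKM in some library were taken as expressed (13064 of 23946), and a gene was counted as called at 2-fold. Relative depth came from the commonest ratio of low FPKM. The steps were checked on simulated data. The members, lists and motifs were chosen with earlier results of these data known. From each pathway list the 2 highest and 2 lowest differences between the naive libraries, among genes reaching 10 FPKM in either, could be named. Other named genes were chosen after their values were seen. Pattern likeness took the 10 nearest genes to the members' mean and the 5 nearest to Fos, of which 1 is not reported here. Alternatives were pseudocounts of 0.1 and 5, rescaling by the median ratio or to a sum of 1000000, and other filters on low values.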

Additional observations from a re-analysis of the deposited data

Results flagged for a closer look

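Of the 10 members, Egr1 moved in opposite directions in the tissues at 24 h after ID8, by more than 1.5-fold in each. On the log2(FPKM + 1) scale it was higher by 0.89 in the omentum, from an FPKM of 239.0 to 444.7, and its difference in the mesentery was -0.64, from 27.6 to 17.4. At 7 d the differences were 0.83 and 0.11. The difference between the tissues was not tested, because each value compares 2 single libraries. The share of all expressed genes that moved in this way was not computed, so how unusual it is for 1 member is not known.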

How the results depend on the processing

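No paired fit by replicate number was made, since the labels carry none, and time served as the block in the test of the tissues. There, 10 of 10 members passed with no time block, with either pseudocount and with either rescaling, and 9 to 10 passed when a time point was left out. The exception was Egr2 without 7 d, at a limma adjusted p of 0.0640. The genes that passed upward numbered 687 with the block, 576 without it, 938 and 388 with pseudocounts of 0.1 and 5, and 710, 153 and 109 without naive, 24 h and 7 d. These fits were added after the data were seen. A log2 value was taken as unchanged within 0.58, the log2 of 1.5. Of 531 recomputed differences of single members, 520 stayed within it and 11 moved beyond it without a change of sign, 7 of them for Fosb, whose mesenteric values are near 0. The median of the members lay between 2.87 and 3.32 in naive mice, 3.06 and 3.40 at 24 h and 3.32 and 3.77 at 7 d (omentum against mesentery), and 10 of 10 members stayed without overlap under both rescalings and when 2-fold at every time point was asked. With genes expressed in every library, Fosb dropped out and 9 of 9 stayed past 2-fold. In OM 7 d against OM naive, 1 member (Jun) in place of 0 was at least 2-fold higher after the median-ratio rescaling, and 1 after rescaling to a sum of 1000000. In OM 7 d against OM 24 h, 1 (Atf3) was after the latter rescaling. In MY 24 h against MY naive, 1 (Egr2) in place of 0 was at least 2-fold lower with a pseudocount of 0.1, and 1 after rescaling to a sum of 1000000.

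The share of all genes at least 2-fold higher moved more. Over the alternatives it was 4.26% to 12.2% in OM naive against MY naive, 7.49% to 18% at 24 h, 6.43% to 17.5% at 7 d, 5.99% to 16.4% in OM 24 h against OM naive, 4.45% to 15.8% in OM 7 d against OM naive, 2.35% to 13.6% in OM 7 d against OM 24 h, 1.06% to 5.5% in MY 24 h against MY naive, 0.222% to 1.77% in MY 7 d against MY naive and 0.742% to 4.02% in MY 7 d against MY 24 h. Rescaling to a sum of 1000000 moved the median of all genes to -0.19, -0.27, -0.17, 0.12 and 0.36 in omentum against mesentery for the naive libraries and at 24 h, and within the omentum at 24 h against naive, 7 d against naive and 7 d against 24 h. It also turned the sign of the differences of Egr2, Egr1, Dusp1 and Ier2 described in the report. It moved the share of higher genes among all calls from 50.4% to 38.6%, from 57.6% to 41.2%, from 64.9% to 50.4%, from 84.8% to 89.5% and from 60.9% to 81.8% in these comparisons, and from 64.8% to 49.4% and from 34.2% to 46.1% in MY 24 h against MY naive and MY 7 d against MY 24 h. The cause was not tested. Depth limits the mesenteric values of Fosb.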
